A study of Mus musculus with 136 samples.

Results

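The collagen genes were taken as every gene on the Illumina MouseRef-8 array whose symbol reads Col, a number, the letter a and a number, and all probes annotated to 1 such gene were kept. This gave 59 probes of 37 genes, of 25697 probes and 16593 genes on the array. Female nude mice of the BALB/c background (CAnN.Cg-Foxn1nu/Crl) were 9 months old and received 90 kBq of the radionuclide 131I, or saline alone, into the tail vein at 9:00, 12:00 or 15:00, and were killed 24 h later. Thyroid, spleen, lungs, liver, kidney cortex and kidney medulla of 22 mice, 12 with 131I and 10 with saline, gave 130 samples in 36 groups of 3 or 4, so that the tissues of a mouse are not independent of each other. All groups, saline included, carry the nude mutation, which leaves the animals without a functional thymus. Each experimental group had a cage of its own, so that cage and group cannot be told apart. Each 131I group was set against the saline group injected at the same time of day.

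Collagens are the main structural proteins of the extracellular matrix, and each molecule is a triple helix of chains. Fibrillar chains (Col1a1, Col1a2, Col3a1, Col5a1) assemble into the fibres of connective tissue and are made mainly by fibroblasts. Type IV chains form the sheet-like network of basement membranes, the thin matrix under epithelia and around capillaries. In nearly all basement membranes this network is built of Col4a1 and Col4a2, while a second network of Col4a3, Col4a4 and Col4a5 is known from the filtration barrier of the kidney glomerulus and from lung alveoli. Other members bind to fibrils, anchor epithelia to the underlying matrix, span the cell membrane or release antiangiogenic fragments, as Col18a1 does with endostatin.

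Type IV genes lie head to head in pairs, and the start regions of Col4a1 and Col4a2 and, of the second network, Col4a4 and Col4a5 are shown because the members of each network had like levels across the tissues. Col4a3 had no entry in the table. The windows run from 250 bases before to 50 bases after the RefSeq transcription start (assembly GRCm38.p6, 5′ to 3′ on the strand of the gene). Capitals mark matches on either strand to a GC box (GGGCGG) and to a CCAAT box (CCAAT). The window of Col4a1, chr8:11312777-11313076 on the minus strand, held 1 GC box and 1 CCAAT box.
Col4a1: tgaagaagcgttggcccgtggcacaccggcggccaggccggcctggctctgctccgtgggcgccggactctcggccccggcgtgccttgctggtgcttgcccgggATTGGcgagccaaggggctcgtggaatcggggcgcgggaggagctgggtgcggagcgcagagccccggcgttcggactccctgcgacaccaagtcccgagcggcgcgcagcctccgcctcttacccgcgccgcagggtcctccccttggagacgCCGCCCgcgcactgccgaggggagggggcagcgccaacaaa
The window of Col4a2, chr8:11312555-11312854 on the plus strand, overlaps it by 78 bases, since the starts lie 21 bases apart on opposite strands, and held 3 GC boxes and 1 CCAAT box.
Col4a2: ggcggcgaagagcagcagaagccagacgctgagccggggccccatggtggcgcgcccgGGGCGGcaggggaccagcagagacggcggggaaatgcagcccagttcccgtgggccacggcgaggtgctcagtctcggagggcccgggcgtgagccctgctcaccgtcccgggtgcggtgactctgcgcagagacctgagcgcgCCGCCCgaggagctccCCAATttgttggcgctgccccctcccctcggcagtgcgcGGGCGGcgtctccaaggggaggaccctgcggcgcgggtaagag
The window of Col4a4, chr1:82586800-82587099 on the minus strand, held neither motif.
Col4a4: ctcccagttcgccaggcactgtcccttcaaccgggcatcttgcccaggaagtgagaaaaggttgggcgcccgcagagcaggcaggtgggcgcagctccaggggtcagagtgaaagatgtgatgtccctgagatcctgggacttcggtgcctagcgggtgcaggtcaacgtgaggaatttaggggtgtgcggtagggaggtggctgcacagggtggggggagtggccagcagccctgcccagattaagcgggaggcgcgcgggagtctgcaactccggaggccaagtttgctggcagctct
The window of Col4a5, chrX:141475169-141475468 on the plus strand, held 1 of each.
Col4a5: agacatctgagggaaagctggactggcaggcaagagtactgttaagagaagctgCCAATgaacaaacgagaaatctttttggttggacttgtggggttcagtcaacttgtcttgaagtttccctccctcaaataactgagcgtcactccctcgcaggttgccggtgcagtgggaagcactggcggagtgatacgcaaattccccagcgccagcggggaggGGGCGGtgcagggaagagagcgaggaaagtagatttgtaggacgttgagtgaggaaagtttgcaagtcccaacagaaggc
G and C made up 74.0% of the Col4a1 window, 73.7% of the Col4a2 window, 63.3% of the Col4a4 window and 52.7% of the Col4a5 window. A TATA box (TATAAA, either strand) was in none of these 4 windows and in 13.6% of all 32851 promoter windows of the table. The GC box was in 35.7% and the CCAAT box in 37.4% of all windows, and in 23 and 13 of the 38 windows that matched a collagen gene. An entry was found for 30 of the 37 genes. These matches describe letters only.

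Of the 59 collagen probes 18 were above background (detection p under 0.01) on none of the 136 arrays, 5 were above it on 1 or 2 arrays, and 36 on at least 3. The last group, from 29 genes, was tested over all tissues, and 7 of its probes were above background on every array. For 8 genes no probe reached 3 arrays. By class, 11 of 17 fibrillar probes, 6 of 9 type IV probes, 3 of 5 type VI probes, 4 of 8 fibril-associated probes, 3 of 4 multiplexin probes, 5 of 10 transmembrane probes, 1 of 2 probes of types VIII and X, and 3 of 4 probes of the anchoring and other class were tested. The 3 probes of Col4a6 stayed at background everywhere. Within single tissues 18 members were tested in the thyroid, 18 in the spleen, 28 in the lungs, 13 in the liver, 23 in the kidney cortex and 24 in the kidney medulla. Where a gene had more than 1 probe, the brightest on average is given.

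Several libraries stood apart in the markers of other tissues. In the samples labelled thyroid, 6 follicular cell genes (Tg, Slc5a5, Pax8, Duox2, Foxe1 and Slc26a4) were above background on 0 of 23 arrays and Nkx2-1 on 1, so that the labelled gland was not recognisable by its defining genes. The 7 fat markers had a median log2 level of 10.89 in these samples (9.49 to 11.49), against medians of 4.53 to 5.29 in the other tissues. The salivary gland and skeletal muscle markers varied between them, as given with the thyroid results. Spleen 131I 12:00 replicate 1 had kidney medulla markers at a mean log2 level of 11.5, against a spleen median of 4.58. Lungs saline 9:00 replicate 4 had kidney medulla markers at 10.9, against a lung median of 4.59. In kidney cortex saline 9:00 replicate 4 the same medulla markers reached 11.1, against a cortex median of 9.74. Thyroid 131I 9:00 replicate 2 had lung markers at 9.44, against a thyroid median of 4.46. Within a tissue, each library was left out in turn. In the comparisons across tissues, only the lungs and kidney cortex libraries were left out, from the fit of saline mice. The spleen and thyroid libraries stayed in the tissue contrasts of 131I mice. Levels and orders given by tissue hold all libraries. The 2 kidney parts also shared marker signal as whole tissues. The kidney cortex markers had a median log2 level of 11.74 in the medulla and 11.96 in the cortex. The kidney medulla markers had 11.54 in the medulla and 9.74 in the cortex. In bulk tissue, fewer cells of a type and less RNA per cell cannot be told apart.

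In saline mice, Col4a1 and Col4a2 were highest in the lungs and lowest in the liver, the kidney and the lungs held the Col4a3, Col4a4 and Col4a5 set, and Col18a1 was highest in the liver. Each tissue was compared with the mean of the other 5 in a limma fit of all 17130 probes tested, with values normalized over all tissues, and called where the p adjusted after Benjamini and Hochberg was under 0.01 and the difference at least 1.5-fold. With these thresholds 14 of 36 collagen probes were higher and 3 lower in the lungs, where 18.5% and 19.5% of all probes were. In the liver 3 were higher and 16 lower (15.8% and 23.4% of all probes). The median log2 difference of the members was 0.26 in the lungs, against -0.10 over all probes, and -0.36 in the liver, against -0.11 over all probes. Of the 36 members 27 were called in at least 1 tissue, as were 73.3% of all probes. The levels of marker genes of matrix-producing cells differed between these tissues as well. Over all 22 samples of a tissue, the fibroblast markers had a median log2 level of 8.39 in the lungs (7.13 to 8.54) and 5.40 in the liver (4.99 to 5.71), and the endothelium markers 8.99 in the lungs (8.25 to 9.38) and 6.81 in the liver (6.17 to 7.09). The lungs were the highest and the liver the lowest of the 6 tissues in both lists, and their part in the collagen differences was not tested.

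**Figure D1:**
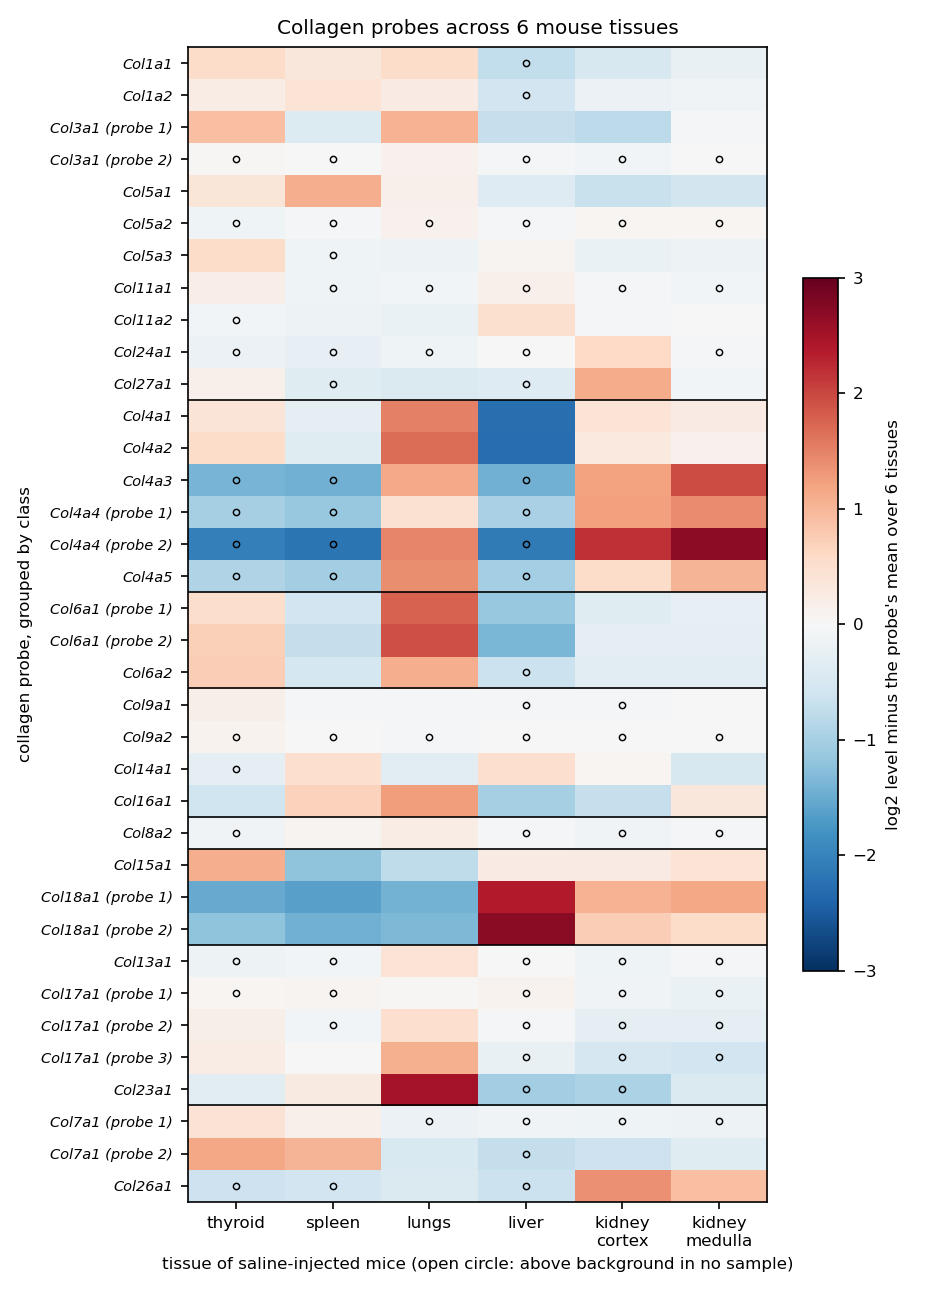
Log2 level of each of the 36 collagen probes in saline mice as the difference from the mean of that probe over the 6 tissues, with members grouped by class and open circles where no saline sample was above background. The Col4a1 and Col4a2 probes were highest in the lungs and lowest in the liver, and the Col18a1 probes highest in the liver.

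Col4a1, the predominant chain of the common basement membrane trimer, had log2 levels of 10.50 to 12.13 in saline lungs (median 11.50) and of 6.84 to 8.29 in saline livers (median 7.76). The lowest lung lay above the highest liver, and its difference from the other 5 tissues was 1.79 ± 0.11 in the lungs (SE, limma adjusted p = 2.02e-19) and -2.72 ± 0.11 in the liver (adjusted p = 8.77e-27). The order of mean levels was lungs (11.43 ± 0.57, SD, n = 10), kidney cortex (10.34 ± 0.21), thyroid (10.31 ± 0.28), kidney medulla (10.18 ± 0.23), spleen (9.64 ± 0.32) and liver (7.67 ± 0.50). Cortex, thyroid and medulla were not told apart among themselves at an adjusted p of 0.01. Col4a2, its partner in the trimer, had the same order with thyroid and cortex exchanged, at 10.66 ± 0.44 in saline lungs and 6.71 ± 0.35 in saline livers. Its differences were 1.99 ± 0.11 in the lungs (adjusted p = 5.9e-21) and -2.71 ± 0.11 in the liver (adjusted p = 1.5e-26). Over the 6 tissue means Col4a1 and Col4a2 correlated at r = 0.995, and their deviations from the group means at r = 0.715 over 130 samples that share mice and arrays.

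The second type IV network was a matter of above or at background. Col4a3, Col4a4 and Col4a5 were above background in all 22 lungs, all 22 cortex samples and all 21 medulla samples, and in 0 of 21 thyroid and 0 of 22 liver samples. The spleen had them in 1 of 22 samples, 131I 12:00 replicate 1, the library with kidney markers, where Col4a3 lay at 7.48, the Col4a4 probes at 8.69 and 6.53, and Col4a5 at 5.77. Col4a4, mutated in human Alport syndrome, had log2 levels of 8.86 to 9.74 in saline medulla (median 9.32), 8.35 to 9.20 in saline cortex (median 8.79) and 7.13 to 8.55 in saline lungs (median 8.28), and its saline means stood in that order, with each step past an adjusted p of 0.01. Its other tested probe did not separate medulla from cortex (adjusted p = 0.133). Against the other 5 tissues it was higher by 3.23 ± 0.09 in the medulla (adjusted p = 3.25e-31, at least 6.02-fold, since the probe was at background in 3 tissues) and by 2.62 ± 0.09 in the cortex (adjusted p = 1.15e-28, at least 3.93-fold). Col4a3 was highest in the medulla (7.88 ± 0.44, n = 9), followed by cortex (7.14 ± 0.63) and lungs (7.05 ± 0.74), which did not differ beyond their spread. Col4a5 took another order, with lungs (6.87 ± 0.38) above medulla (6.49 ± 0.19) and cortex (6.02 ± 0.35). Tissue means of Col4a3 correlated with those of Col4a4 at r = 0.996 and with those of Col4a5 at r = 0.952 over the 6 tissues, 3 of which lay at background.

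**Figure D2:**
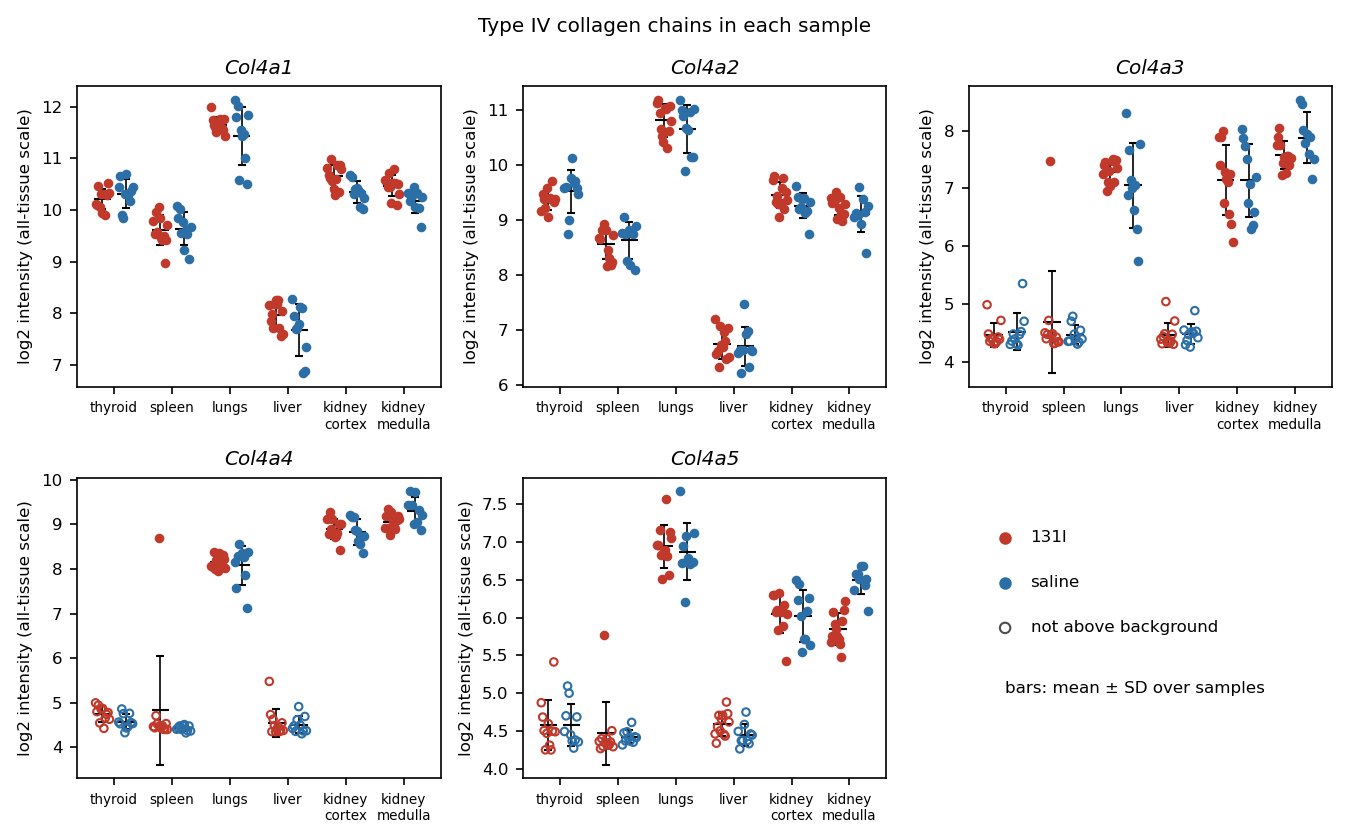
Log2 intensity of 5 type IV collagen chains in each sample of the 6 tissues, on values normalized over all arrays, with 131I mice (red) left of saline mice (blue), open points where the probe was not above background, and bars for mean ± SD. Col4a3, Col4a4 and Col4a5 lie at background in thyroid, liver and spleen apart from 1 spleen sample.

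Col18a1, a basement membrane proteoglycan and the precursor of endostatin, showed the opposite pattern to Col4a1 in the liver. Its log2 level was 12.69 to 13.12 in saline livers (median 12.82), 10.88 to 12.02 in saline medulla (median 11.78) and 10.84 to 11.92 in saline cortex (median 11.65). Every saline liver lay above every sample of the other tissues, and lungs (9.08 ± 0.52), thyroid (8.99 ± 0.45) and spleen (8.87 ± 0.23) did not differ beyond their spread. The liver difference was 2.86 ± 0.10 (adjusted p = 7.99e-30), and 3.25 ± 0.11 at the other tested probe (adjusted p = 1.09e-30). Col15a1, the other multiplexin, was called higher in the thyroid (1.33 ± 0.13, adjusted p = 2.35e-12) and lower in spleen (-1.47 ± 0.13) and lungs (-0.90 ± 0.13).

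The lungs also led in other classes. Col23a1, a transmembrane collagen, had log2 levels of 6.73 to 8.70 in saline lungs (median 8.19), with a mean of 5.84 ± 0.27 in saline spleens, the next tissue. The groups did not overlap, and the lung difference of 3.03 ± 0.12 (adjusted p = 3.88e-27) corresponded to at least 6.32-fold. Col6a1, a chain of the beaded filaments that surround cells, had 10.15 ± 0.46 in saline lungs and 6.85 ± 0.26 in saline livers, the extremes of its order, with a lung difference of 2.32 ± 0.12 (adjusted p = 3.18e-23). Col16a1, a fibril-associated chain, was higher by 1.57 ± 0.10 in the lungs (adjusted p = 4.75e-19), and by 0.84 ± 0.10 in the spleen (adjusted p = 1.76e-10). The 3 members lower in the lungs were both Col18a1 probes and Col15a1.

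Among the fibrillar chains, Col1a1, the main chain of type I collagen, lay near background throughout and was above it in 10 of 10 saline lungs, 6 of 10 saline thyroid samples, 7 of 10 saline spleens and 0 of 10 saline livers. Its differences were 0.67 ± 0.12 in the thyroid (adjusted p = 1.78e-06, at least 1.35-fold) and 0.65 ± 0.12 in the lungs (adjusted p = 3.07e-06, at least 1.33-fold). It was lower in the liver (adjusted p = 5.23e-09), where no saline sample was above background and no fold is given. Col1a2, the second chain of type I collagen, was called lower in the liver (adjusted p = 6.44e-06), where no saline sample was above background and no fold is given, and was not called in the other 5 tissues. Col3a1, the chain of reticular fibres, had 8.28 ± 0.86 in saline lungs and 8.13 ± 0.50 in saline thyroid samples, which did not differ beyond their spread, and 6.43 ± 0.98 in saline cortex at the low end. It was higher in the lungs (1.29 ± 0.22, adjusted p = 6.98e-07) and thyroid (1.09 ± 0.22, adjusted p = 1.68e-05), and lower in the liver (-0.91 ± 0.22, adjusted p = 0.000215) and cortex (-0.90 ± 0.22, adjusted p = 0.00034). Its second probe, near background, was called nowhere. Col5a1, a type V chain that regulates fibril diameter, was higher in the spleen (1.25 ± 0.12, adjusted p = 7.33e-13).

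In the thyroid 9 of 36 members were called higher and 8 lower (18.3% and 20.4% of all probes), and in the spleen 4 higher and 11 lower (24.4% and 23.8% of all probes). Among the members, the largest negative differences of the thyroid samples were those of Col4a4 (-2.45 ± 0.09, at least 2.10-fold) and Col18a1 (-1.87 ± 0.10). Col15a1 and Col3a1 were high, with the fat markers high in every thyroid sample and their part not tested. Col7a1 was called higher over the 3 times (1.24 ± 0.12, at least 2.10-fold), but on these values, normalized over all tissues, its log2 levels were 7.62 to 8.42 in the 4 saline thyroid samples of 9:00, which had high salivary gland markers, and 5.25 to 6.67 in the 6 of the later times. Without the 9:00 mice the difference of Col7a1 was 0.47 and was not called (adjusted p = 0.0117), while Col15a1 (1.46) and Col3a1 (1.08) were still called. Col7a1 forms the anchoring fibrils beneath stratified epithelia and was higher in the spleen (1.26 ± 0.12, at least 2.12-fold). Its second probe, near background, was called in no tissue. In the spleen Col4a4 (-2.62 ± 0.09, at least 2.97-fold) and Col18a1 (-1.92 ± 0.10) were the lowest, followed by Col4a3 (-1.73 ± 0.13, at least 1.65-fold).

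In the kidney cortex 9 members were higher and 6 lower (13.1% and 14.2% of all probes), and in the medulla 7 higher and 2 lower (12.9% and 12.7% of all probes). Beyond type IV, the cortex was higher in Col26a1 (1.66 ± 0.08, at least 1.97-fold) and in the fibrillar chain Col27a1 (1.34 ± 0.12, at least 2.05-fold), and both kidney parts were higher in Col18a1 (1.40 ± 0.10 in the medulla and 1.27 ± 0.10 in the cortex). A direct comparison of medulla with cortex, parts with like levels of the kidney cortex markers, called 2 members higher (4.37% of all probes) and 2 lower (3.58%). Col16a1 was higher in the medulla by 1.05 ± 0.13 (adjusted p = 2.43e-08) and Col4a3 by 0.80 ± 0.17 (adjusted p = 0.00027). Col27a1 was lower in the medulla (-1.20 ± 0.15, adjusted p = 2.38e-08), as was Col24a1, another fibrillar chain (-0.64 ± 0.16, adjusted p = 0.0019, at least 1.10-fold). Of these, Col16a1 (0.85) and Col27a1 (-0.72) were also called in 131I mice. Col4a3 (0.43, adjusted p = 0.0824) and Col24a1 (-0.33, adjusted p = 0.0263) were not, and neither was called without the 12:00 mice, nor Col24a1 without the 9:00 mice. Col4a3, Col24a1 and Col27a1 stayed under 1.5-fold without background correction and in the deposited normalized values. With kidney cortex saline 9:00 replicate 4 and lungs saline 9:00 replicate 4 left out, as chosen after seeing the data, the only one of these tissue counts to move by more than 1.5 times was that of members lower in the lungs, which became 5.

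The same contrasts were fitted in the 131I mice, which are other animals, with the libraries that carry markers of other tissues kept. Members called in the same direction in both sets numbered 15 in the thyroid (93.8% of those called in 131I mice and 88.2% of those called in saline mice), 13 in the spleen (92.9% and 86.7%), 17 in the lungs (89.5% and 100%), 18 in the liver (100% and 94.7%), 14 in the cortex (87.5% and 93.3%) and 8 in the medulla (88.9% of each). Over all probes the shares of the 131I and saline lists were 85.9% and 85.8% in the thyroid, 95.4% and 91.2% in the spleen, 91.2% and 92.4% in the lungs, 93.0% and 90.8% in the liver, 89.4% and 88.4% in the cortex, and 83.9% and 85.0% in the medulla, so that the members' shares lay near those of the array. For medulla against cortex 2 members were shared (100% and 50% of the lists, against 77.7% and 32.8% over all probes), and none of these contrasts called a member in opposite directions.

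In 18 comparisons of 131I with saline within tissue and time, 4 of 18 members were called in the thyroid at 9:00 (12.3% of all probes) and 1 of 24 in the kidney medulla at 12:00 (4.25% of all probes), all lower after 131I. No member was called in the other 16, where 0% to 1.45% of all probes were. These comparisons used values normalized within the tissue and a limma fit of all 6 groups of the tissue, with the same thresholds. The contrasts of saline groups between times of day called 4 members in the thyroid (15:00 against 9:00) and 1 in the liver (15:00 against 9:00 and against 12:00).

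In the thyroid at 9:00, 4 of 18 members were lower after 131I and 0 higher, in a comparison where 12.3% of all 12144 probes were called (4.26% higher and 8.05% lower). The brighter probe of Col7a1 fell, as did Col18a1 and the fibril-associated Col16a1. The remaining call is the dimmer probe of Col7a1. That probe was above background on 3 thyroid arrays, all of saline 9:00, and so passed the filter only through the group where it was high. Its call is no support for that of the brighter probe. The median log2 fold-change of the 18 members was 0.04, against 0.08 over all probes. The member median lay between -0.05 (without saline replicate 4) and 0.13 (without saline replicate 2) with a sample left out, and at 0.17 after median scaling. An unadjusted p under 0.05 was reached by 8 of 18 members (44.4%) and by 40.8% of all probes.

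Col7a1 had log2 levels of 5.05, 5.49, 5.27 and 5.50 in 131I mice, against 6.97, 6.82, 7.61 and 7.38 in saline mice. All 4 treated samples lay more than 1 log2 unit below the lowest saline sample, and the fold-change was -1.87 ± 0.40 (SE, limma adjusted p = 0.00349). Its other probe was above background in 3 of 4 saline samples and in no 131I sample (-0.67 ± 0.15, adjusted p = 0.0048, at least 1.10-fold lower). Col18a1 had 7.66, 7.32, 7.65 and 7.60 in 131I mice, against 8.59, 8.75, 9.04 and 8.27 in saline mice. The groups did not overlap, and the fold-change was -1.11 ± 0.17 (adjusted p = 0.00189). Col16a1 had 6.18, 5.93, 5.71 and 6.39 in 131I mice, against 6.71, 6.66, 7.31 and 7.18 in saline mice, again without overlap (-0.91 ± 0.23, adjusted p = 0.00823). This call was lost under 5 of 9 alternatives, namely median scaling, no background correction, no filter, a replicate block and the compared groups alone (adjusted p up to 0.0715). The main fibrillar chain Col1a1 had 5.50, 5.46, 6.04 and 5.68 in 131I mice and 5.28, 5.20, 5.32 and 4.86 in saline mice, and was not called.

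Markers of neighbouring tissues moved with these results in the thyroid. The 10 salivary gland markers had mean log2 levels of 4.71, 5.17, 4.83 and 4.89 in 131I mice of 9:00, against 12.94, 12.81, 13.16 and 12.48 in saline mice of 9:00, on the values normalized over all tissues. The markers were high in every saline sample and near background in every 131I sample of 9:00, so that this difference and the treatment cannot be told apart at this time. The skeletal muscle markers lay at 5.01, 12.999, 13.05 and 13.21 in 131I mice and 4.76, 4.72, 4.54 and 5.12 in saline mice. They were high in most 131I samples, but the groups overlapped, since the 131I sample at 5.01 lay below the saline sample at 5.12. The fibroblast markers lay at 7.79, 8.37, 7.97 and 7.84 in 131I mice and 7.36, 7.61, 7.10 and 7.32 in saline mice. All these marker lists were chosen with earlier results of these data known. Their differences between 131I and saline mice may therefore be partly built in.

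Among the genes that make, bind or break down collagen, the thyroid at 9:00 had calls in both directions, as it had over all probes (4.26% higher and 8.05% lower). Of 9 basement membrane partners 2 were lower after 131I, the laminin chain Lamb3 (-2.36 ± 0.34, adjusted p = 0.0019) and the proteoglycan Agrn (-0.70, adjusted p = 0.0066). Of 21 probes of collagen biosynthesis 2 were higher and 1 lower, with Pcolce2, an enhancer of procollagen cleavage, at 1.39 (adjusted p = 0.003) and P4hb, a subunit of prolyl hydroxylase, at -2.98 (adjusted p = 0.0045). Of 6 receptors the integrin Itga11 was higher (1.37, adjusted p = 0.0031) and the kinase Ddr1 lower (-2.24, adjusted p = 0.0039). Of 14 fibril partners 2 were higher and 0 lower, among them the tenascin Tnxb (1.82, adjusted p = 0.0021). The salivary gland markers were lower in the same comparison, and their part in these calls was not tested.

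At 12:00 and 15:00 the salivary gland markers varied within the groups. They lay at 12.06, 12.996 and 10.61 in 131I mice and 4.57, 5.20 and 12.51 in saline mice of 12:00, and at 13.22, 4.75, 12.68 and 4.57 in 131I mice and 4.67, 4.74 and 8.70 in saline mice of 15:00. Col7a1 had 5.44, 6.41 and 4.89 in 131I mice and 4.88, 4.81 and 5.91 in saline mice of 12:00, and 7.26, 5.33, 6.62 and 5.35 in 131I mice and 4.97, 5.67 and 5.11 in saline mice of 15:00. In 3 of these 4 groups the sample with the highest Col7a1 was also the one with the highest gland markers. No member was called at 12:00 or 15:00 or in the mean of the 3 times, as no probe of the array was (0%). Unadjusted p values under 0.05 numbered 2, 1 and 4 of 18 members in these contrasts, against 3.26%, 12.5% and 11.4% of all probes. The smallest p at 12:00 was that of Col4a2 (-0.54, adjusted p = 0.972), and the smallest at 15:00 that of Col15a1 (-0.61, adjusted p = 0.387).

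**Figure D3:**
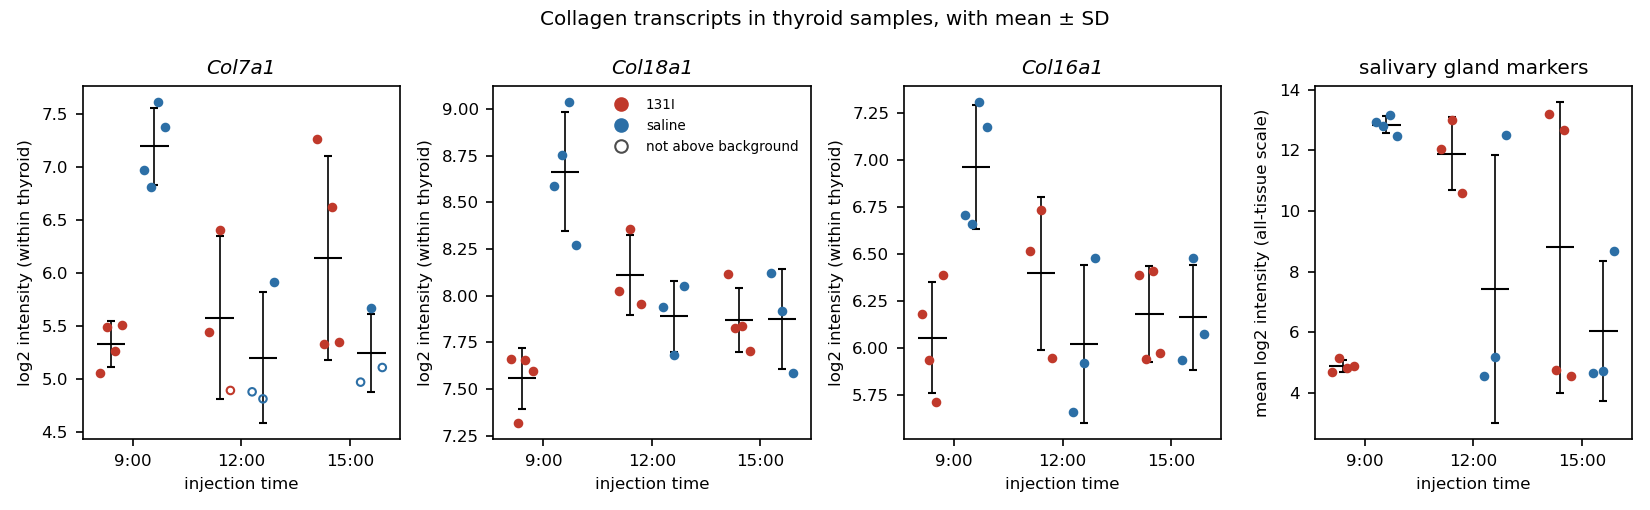
Log2 intensity of Col7a1, Col18a1 and Col16a1 in each thyroid sample, and the mean log2 intensity of the salivary gland markers, by injection time, with 131I (red) left of saline (blue), open points where a probe was not above background, and bars for mean ± SD. The saline samples of 9:00 lie above all 131I samples of 9:00 in each panel.

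Saline mice of 15:00 had 4 of 18 members lower than saline mice of 9:00 in the thyroid (11.6% of all probes called, 5.02% higher and 6.56% lower). This contrast shares the saline 9:00 mice with the comparison above, and the salivary gland markers differed with it, at 4.67, 4.74 and 8.70 in saline mice of 15:00 against 12.94, 12.81, 13.16 and 12.48 in saline mice of 9:00, so that the gland markers and the time of day cannot be told apart here. The brighter probe of Col7a1 was lower (-1.95 ± 0.43, adjusted p = 0.00489), and its other probe passed the test (adjusted p = 0.00845) but was above background in no sample of 15:00, so that no fold is given. That other probe was tested in the thyroid only through the arrays of saline 9:00, and its call is no support for that of the brighter probe. Col18a1 fell by 0.79 on the log2 scale (SE 0.18, adjusted p = 0.00552), and Col17a1, the transmembrane collagen of hemidesmosomes, was lower at 1 probe. Col17a1 had 4.24, 4.41 and 4.27 in saline mice of 15:00, none of them above background, against 5.40, 5.11, 6.51 and 5.88 in saline mice of 9:00 (-1.42 ± 0.34, adjusted p = 0.00632, at least 1.45-fold lower). At 12:00 against 9:00 the same tests missed the threshold (0.412% of all probes called), with Col7a1 at -1.99 (adjusted p = 0.0124) and Col18a1 at -0.77 (adjusted p = 0.0149), and at 15:00 against 12:00 no member had an unadjusted p under 0.05. The difference of the 131I response between times was called for 0 of 18 members (0% of all probes), with 6 at an unadjusted p under 0.05 (34.6% of all probes) and Col18a1 nearest (adjusted p = 0.0103).

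Several of the thyroid calls were lost with a sample left out, while the fold-changes at 9:00 stayed between -2.001 and -1.74 for Col7a1, -1.24 and -0.99 for Col18a1 and -1.02 and -0.80 for Col16a1. Without saline 9:00 replicate 3, no member was called in 131I against saline at 9:00, and 1 was called without 131I replicate 3, 131I replicate 4 or saline replicate 4, and 2 without 131I replicate 2 (the library with lung markers) or saline replicate 1. Of the 8 fits, Col16a1 lost its call in 7 (adjusted p up to 0.0365), all but that without saline replicate 2. The brighter probe of Col7a1 lost it in 4 (adjusted p up to 0.0167), those without 131I replicate 3 or 4 or saline replicate 3 or 4, and Col18a1 in 1, without saline replicate 3 (adjusted p = 0.0116). The dimmer probe of Col7a1 was tested in only 5 of the 8 fits and lost its call in 3 of them. For 15:00 against 9:00, no member was called without saline 9:00 replicate 3 or any of the saline 15:00 replicates 1, 2 and 3, and 1 without saline 9:00 replicate 4. The signs did not change. These counts stand without the shares of all probes called in the same fits. A loss of calls over the whole array is thus not told apart from one of the members.

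In the kidney medulla, 1 collagen transcript was lower after 131I, that of Col4a5, which encodes a chain of the glomerular and tubular basement membrane network. At 12:00 Col4a5 had log2 levels of 6.13, 6.03, 5.98 and 5.91 in 131I mice, against 6.84, 7.01 and 7.02 in saline mice. The groups were apart by more than the range of either, and the fold-change was -0.94 ± 0.17 (SE, limma adjusted p = 0.00183), 1 of 24 members where 4.25% of all 13247 probes were called. At 9:00 it had 5.94, 6.02, 6.37 and 6.19 in 131I mice, against 6.68, 6.91 and 6.90 in saline mice. Those groups did not overlap either, but the fold-change of -0.70 missed the threshold (adjusted p = 0.0376). At 15:00 it had 5.72, 6.24, 6.41 and 6.53 in 131I mice, against 6.76, 6.84 and 6.39 in saline mice, and the groups overlapped (-0.44, adjusted p = 0.815). Averaged over the 3 times, Col4a5 was lower by 0.69 on the log2 scale as the only member called, with an SE of 0.10 and an adjusted p = 0.000302, where 2.77% of all probes were called.

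The 131I difference of Col4a5 also differed between the 6 tissues (F test, adjusted p = 0.00706, with 1 of 36 members and 0.992% of all 17130 probes called). The fit had no term for the mouse, although tissues of a mouse are not independent, and it kept the libraries with markers of other tissues. The probe was at background in the thyroid, the liver and all but 1 spleen sample, where no difference could show. Over lungs, cortex and medulla alone, as chosen after seeing the data, the F test gave an adjusted p = 0.00394 (1 member and 0.665% of all probes called). Averaged over the times, Col4a5 was at 0.07 in the lungs (adjusted p = 0.999) and at 0.07 in the cortex (adjusted p = 0.875). In the cortex at 12:00 it had 5.87, 6.39, 6.13 and 6.15 in 131I mice and 5.57, 5.75 and 5.76 in saline mice (0.44, adjusted p = 0.453). The direction in the cortex was opposite to that in the medulla, without a call.

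The partners of Col4a5 in the trimer were not called. Col4a3 had 7.56, 7.75, 7.85 and 7.58 in 131I mice of 12:00, against 8.10, 8.25 and 7.90 in saline mice, without overlap, and its fold-change of -0.40 had an adjusted p = 0.0893. Its change at 9:00 was -0.48 (adjusted p = 0.0899), that at 15:00 was -0.01 (adjusted p = 0.998), and that averaged over the times -0.30 (adjusted p = 0.0309). Col4a4 changed by -0.24 at 12:00 (adjusted p = 0.355). No member was called at 9:00 or 15:00 (0% of all probes), where 7 and 2 of 24 had an unadjusted p under 0.05 (18.3% and 5.84% of all probes), and the response differed between times for none (0%), with 2 at an unadjusted p under 0.05 (14.8% of all probes). Col4a1, the chain of the other network, was at 0.28 over the 3 times (adjusted p = 0.0272), and Col14a1, a fibril-associated chain, at 0.47 (adjusted p = 0.0225). Between times of day, no member was called in saline medulla, and 1, 5 and 2 had an unadjusted p under 0.05 for 12:00 against 9:00, 15:00 against 9:00 (0.159% of all probes called) and 15:00 against 12:00, as had 9.12%, 9.22% and 10.3% of all probes.

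**Figure D4:**
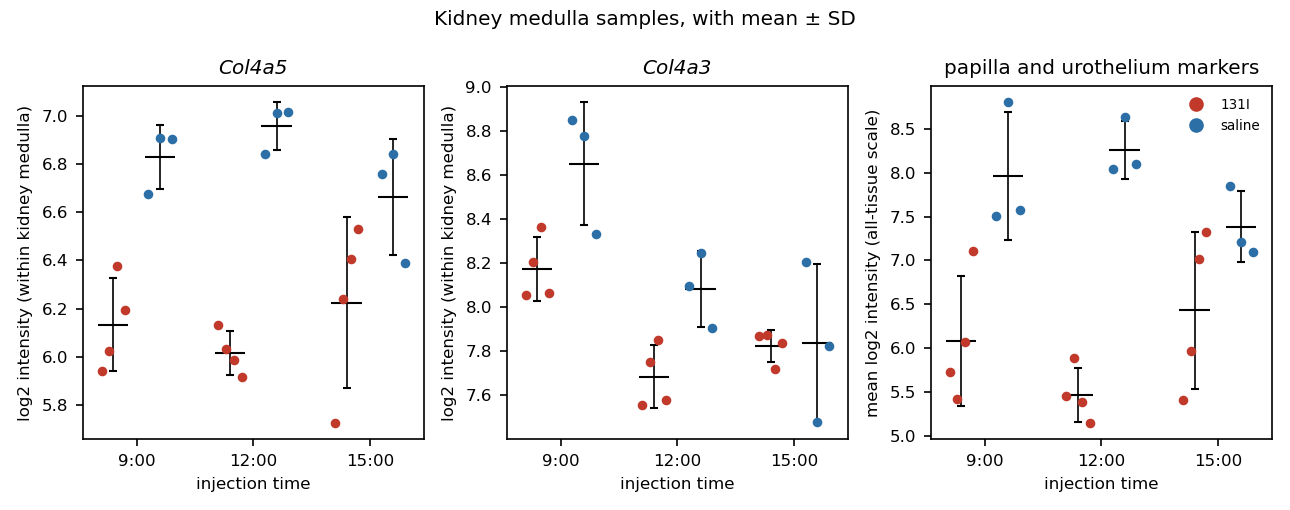
Log2 intensity of Col4a5 and Col4a3 in each kidney medulla sample, and the mean log2 intensity of papilla and urothelium markers, by injection time, with 131I (red) left of saline (blue) and bars for mean ± SD. Col4a5 is lower in all 131I samples than in all saline samples at 9:00 and 12:00.

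The papilla and urothelium markers moved with Col4a5. Their mean log2 level at 12:00 was 5.45, 5.88, 5.39 and 5.15 in 131I mice, against 8.04, 8.64 and 8.10 in saline mice. At 9:00 the papilla and urothelium markers lay at 5.72, 5.42, 6.07 and 7.11 in 131I mice and 7.51, 8.81 and 7.58 in saline mice, and at 15:00 at 5.41, 5.97, 7.02 and 7.32 in 131I mice and 7.85, 7.21 and 7.10 in saline mice. The kidney cortex markers at 12:00 lay at 12.05, 11.73, 11.98 and 12.04 in 131I mice and 11.74, 11.04 and 11.48 in saline mice. Like those of Col4a5, the groups of the papilla and urothelium markers were apart at 9:00 and 12:00 and overlapped at 15:00, and their part in the result was not tested. The marker list was chosen with earlier results of these data known. Its fall after 131I may therefore be partly built in, and is no independent match to Col4a5.

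Leaving out 1 medulla sample at a time kept the change of Col4a5 at 12:00 between -1.002 and -0.91, and it lost its call without saline 12:00 replicate 3 (adjusted p = 0.0138). The mean over the times kept its call in all 21 fits with a sample left out (largest adjusted p = 0.00103). Without background correction the change at 12:00 was -0.41, and there as in the deposited normalized values it stayed under 1.5-fold, while the adjusted p was at most 0.00421 under every one of the 9 alternatives run on all samples.

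Other members of the basement membrane partner list were lower in the medulla at 12:00, of 11 tested probes 3 lower and 0 higher (2.28% and 1.97% of all probes). They were Hspg2, the proteoglycan perlecan (-0.87 ± 0.12, adjusted p = 0.00059), and the laminin chains Lamb2 (-0.97, adjusted p = 0.00078) and Lamb3 (-3.04 ± 0.65, adjusted p = 0.0047). Of 15 probes of fibril partners 3 were lower and 0 higher, from the small proteoglycans Lum (-1.45, adjusted p = 0.0012) and, at 2 probes, Dcn (-0.99, adjusted p = 0.005, and -1.29, adjusted p = 0.0085). Of 10 probes of collagen breakdown 1 was lower and 0 higher, the inhibitor Timp2 (-0.72, adjusted p = 0.0076). The papilla and urothelium markers were lower in the same comparison, and their part in these calls was not tested.

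In the liver, Col4a1 was lower in saline mice of 15:00 than in those of 9:00 and 12:00. Each of these groups had its own cage, so that time of day and cage cannot be told apart. Col4a1 had log2 levels of 8.02, 7.65, 7.39 and 7.42 in saline mice of 9:00, of 7.50, 7.85 and 7.82 in those of 12:00, and of 6.47, 6.52 and 7.01 in those of 15:00. The 15:00 samples lay below all others. Col4a1 was the only one of 13 members called, at -0.96 ± 0.17 for 15:00 against 9:00 (SE, limma adjusted p = 0.00128, 2.88% of all 11564 probes called) and at -1.06 ± 0.19 for 15:00 against 12:00 (adjusted p = 0.0015, 1.69% of all probes called). In 131I mice Col4a1 lay at 7.90, 7.55, 7.71 and 7.41 at 9:00, at 7.91, 8.003, 7.91 and 7.997 at 12:00, and at 7.42, 7.24, 7.76 and 7.29 at 15:00. All 4 treated livers of 15:00 lay above all 3 saline livers of 15:00, but the difference of 0.76 ± 0.17 was not called (adjusted p = 0.0626).

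**Figure D5:**
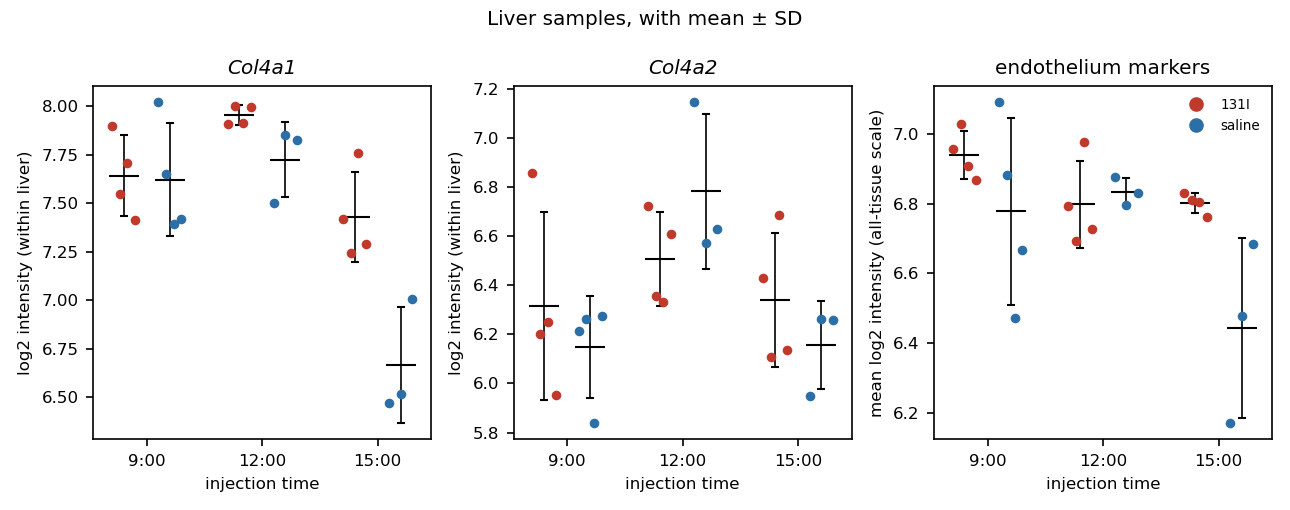
Log2 intensity of Col4a1 and Col4a2 in each liver sample, and the mean log2 intensity of the endothelium markers, by injection time, with 131I (red) left of saline (blue) and bars for mean ± SD. The saline livers of 15:00 are the lowest in Col4a1.

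Col4a2, its partner, had 6.21, 6.26, 5.84 and 6.28 in saline mice of 9:00, 7.15, 6.57 and 6.63 in those of 12:00, and 5.95, 6.26 and 6.26 in those of 15:00. Its 12:00 samples were the highest, and neither 12:00 against 9:00 (0.64, adjusted p = 0.0876) nor 15:00 against 12:00 (-0.63, adjusted p = 0.13) was called. The endothelium markers lay at 7.09, 6.88, 6.47 and 6.67 in saline mice of 9:00, 6.88, 6.80 and 6.83 in those of 12:00, and 6.17, 6.48 and 6.69 in those of 15:00. Their part in the change of Col4a1 was not tested. The call for 15:00 against 9:00 was lost without saline 15:00 replicate 1 or 2 (adjusted p up to 0.0141), and that for 15:00 against 12:00 without saline 12:00 replicate 2 or 3 or saline 15:00 replicate 1 or 2 (adjusted p up to 0.0116).

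After 131I, the liver had no member called at 9:00 (0% of all probes), 12:00 (1.45%) or 15:00 (0.0259%), nor in the mean over the times (0.147%), with 0, 2, 3 and 1 of 13 members at an unadjusted p under 0.05, against 5.72%, 14.0%, 13.4% and 11.7% of all probes. At 12:00 the median log2 fold-change of the members was 0.23, against 0.01 over all probes. It was 0.12 after median scaling or without background correction, 0.03 without the filter on dim probes and 0.14 without saline 12:00 replicate 1. The members nearest to a call were Col6a1 (0.65, adjusted p = 0.0836) and Col5a1 (0.58, adjusted p = 0.148). In saline livers 12:00 against 9:00 called no member (2.03% of all probes), with 2 at an unadjusted p under 0.05 (15.9% of all probes). The response differed between times for 0 of 13 members (0.545% of all probes), with 5 at an unadjusted p under 0.05 (14.5% of all probes) and Col6a1 nearest (adjusted p = 0.156).

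In the lungs no member was called after 131I at any time, and no probe of the array was (0%), with 4, 0 and 3 of 28 members at an unadjusted p under 0.05 at the successive times and 0 in their mean, against 7.34%, 2.06%, 2.55% and 3.69% of all probes. At 9:00 the median log2 fold-change of the members was 0.22, against 0.04 over all probes, in the comparison that holds lungs saline 9:00 replicate 4. The member median was 0.13 without that library, 0.09 without background correction, 0.08 without the filter on dim probes and 0.07 in the deposited normalized values. The nearest were the fibril-forming chain Col5a1 (0.65) and the fibril-associated Col16a1 (0.56), each with an adjusted p = 0.622, as had Col5a2, which was above background on 3 lung arrays and in no saline lung, so that no fold is given. In saline mice Col16a1 had 10.07, 9.88 and 9.74 at 15:00, against 8.88, 9.25, 9.45 and 8.55 at 9:00, with no overlap and a difference of 0.86 ± 0.17 (adjusted p = 0.0297). It was not called, in a contrast where 0.0854% of all probes were. The value of 8.55 is that of replicate 4, the library with kidney medulla markers. No member was called in this contrast with any of the 7 samples left out.

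In the spleen, no member was called in any comparison within the tissue, and after 131I no probe of the array was (0%), with 2, 1 and 0 of 18 members at an unadjusted p under 0.05 at the successive times, against 4.53%, 6.33% and 2.73% of all probes. The nearest were Col1a1 at 9:00 (-0.73, adjusted p = 0.974) and Col7a1 at 12:00 (-0.76, adjusted p = 0.701). The saline contrasts of 12:00 against 9:00, 15:00 against 9:00 and 15:00 against 12:00 had 1, 3 and 1 members at an unadjusted p under 0.05, against 7.19%, 9.01% and 1.49% of all probes. In saline mice Col1a1 was also nearest for 12:00 against 9:00 (-0.91, adjusted p = 0.672) and 15:00 against 9:00 (-0.84, adjusted p = 0.476).

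In the kidney cortex no member was called, against 0.141% of all probes after 131I at 12:00 and 0% at 9:00, at 15:00 and in the mean, with 1, 2, 3 and 3 of 23 members at an unadjusted p under 0.05 in these contrasts, against 9.60%, 3.87%, 6.72% and 9.92% of all probes. Col4a1 was nearest at 15:00 (0.52, adjusted p = 0.562) and in the mean (0.32 ± 0.08, adjusted p = 0.185). By time of day, Col4a3 stood near the threshold in saline cortex. It had 8.11, 7.96, 7.82 and 7.60 at 9:00, 6.82, 7.16 and 6.37 at 12:00, and 6.44, 6.67 and 7.27 at 15:00. The 9:00 samples were the highest, replicate 4 with its medulla markers included, and the differences of -1.09 ± 0.25 for 12:00 (adjusted p = 0.044) and -1.08 for 15:00 (adjusted p = 0.0667) against 9:00 were not called, where 0.0783% and 0.047% of all probes were. Col18a1 was at -0.67 for 15:00 against 12:00 (adjusted p = 0.0441, 0.204% of all probes called). In 131I mice Col4a3 lay at 7.97, 7.49, 7.96 and 8.08 at 9:00, at 6.83, 7.37, 7.24 and 7.19 at 12:00, and at 6.64, 7.34, 6.47 and 6.14 at 15:00, so that the 9:00 samples were the highest there too. Across the 3 saline contrasts, 5, 6 and 4 of 23 members had an unadjusted p under 0.05, against 13.2%, 9.92% and 17.0% of all probes. The response to 131I was not called different between times for any member of the cortex, the lungs or the spleen (0.00783%, 0% and 0% of all probes), with 2, 4 and 0 members at an unadjusted p under 0.05, against 5.95%, 3.33% and 4.70% of all probes.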

How the data were processed

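Tissue RNA was measured on Illumina MouseRef-8 arrays. The authors deposited non-normalized signal intensities, which are bead averages per probe without normalization between arrays, with detection p-values against the negative control beads, and intensities that they had quantile normalized over all 6 tissues. Probes were named from the platform annotation, in which 23978 probes had 1 symbol and 1719 were unnamed. The number of arrays limits the precision. Of the probes of an array, 34.7% to 51.9% were above background.

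The non-normalized intensities were background-corrected with nec (offset 16), which reads the detection p values, then quantile normalized by tissue (over all tissues for tissue contrasts and marker levels) and taken to log2 with limma 3.58.1 in R 4.3.3, with tables read by the data.table package in version 1.17.8. The 6 repeat arrays were averaged with their replicates. Probes detected at p under 0.01 on 3 or more arrays were tested with lmFit and eBayes with trend, all 6 groups of a tissue in 1 fit, and called at a Benjamini-Hochberg adjusted p under 0.01 over all probes and 1.5-fold. "At least" folds are bounds against groups at background.

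Members, marker lists and partner lists were chosen with earlier results of these data known. Named are all members called in a test within a tissue, the members with the smallest p where none was called, the called members with the largest tissue differences, Col1a1, Col1a2, Col3a1, Col4a1 and Col4a2, and at most 3 called genes per partner list. Nothing in the sources says more about replicates than that they are separate mice. The 59 pairs of 131I and saline samples with the same number did not deviate together (median r = 0.006), so the numbers do not pair them. Scripts were tested on simulated data. The alternatives tried were median scaling, no background correction, no filter, no fold limit, the values as normalized by the authors, the compared groups alone, repeat arrays left out or counted, a replicate block, the 131I mice, each injection time left out and each replicate left out. No slide is given in the sources used here.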

Additional observations from a re-analysis of the deposited data

Results flagged for a closer look

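Among 128 groups of 4 samples of Col1a1, Col1a2, Col3a1, Col4a1, Col4a2 and the members called within a tissue, 8 had a sample whose gap to the nearest other exceeded Dixon's critical value at 95% for 4 samples, where chance gives 5% or 6.4 groups. Col4a1 lay at 9.81 in thyroid 131I 9:00 replicate 3 (others 9.33 to 9.39) and at 10.44 in kidney cortex 131I 15:00 replicate 2 (others 10.89 to 10.96). Col4a2 lay at 8.97 in thyroid 131I 15:00 replicate 2 (others 8.56 to 8.62) and at 5.84 in liver saline 9:00 replicate 3 (others 6.21 to 6.28). Col3a1 lay at 8.55 in thyroid 131I 15:00 replicate 4 (others 7.16 to 7.36) and at 9.79 in lungs saline 9:00 replicate 3 (others 8.02 to 8.30). Col1a2 lay at 6.43 in spleen saline 9:00 replicate 2 (others 5.22 to 5.31) and at 4.63 in liver 131I 9:00 replicate 4 (others 4.44 to 4.45), where it was not above background.

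The difference of Col4a5 between 131I and saline mice was not the same in the 6 tissues (F test, limma adjusted p = 0.00706, in a fit without a term for the mouse). The difference averaged over the times was -0.69 in the kidney medulla, where it was called, and 0.07 in the lungs (adjusted p = 0.999) and 0.07 in the cortex (adjusted p = 0.875), where it was not. In the thyroid, the liver and all but 1 spleen sample the probe was at background, and over the other 3 tissues alone the F test gave an adjusted p = 0.00394.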

How the results depend on the processing

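No count or value of a single probe reversed its sign under any alternative, although medians over the members that lay near 0 could: 493 values of single probes kept their side of the threshold and 49 lost it, and 539 counts stayed within 1.5 times while 61 did not. Without background correction, the members called were 2 in the thyroid for 131I at 9:00 and 2 for saline 15:00 against 9:00, 0 in the liver for 15:00 against 9:00, and 0 in the medulla at 12:00 and over the times. Across tissues the same setting gave 1 higher and 4 lower in the thyroid, 1 and 5 in the spleen, 9 higher in the lungs, 7 lower in the liver, 2 and 0 in the cortex, 4 and 0 in the medulla, and 1 and 0 for medulla against cortex. In the deposited normalized values the medulla had 0 at 12:00 and 0 over the times, and the tissues had 4 higher and 4 lower in the thyroid, 2 and 5 in the spleen, 9 higher in the lungs, 7 lower in the liver, 5 and 1 in the cortex, 4 and 0 in the medulla, and 1 and 0 for medulla against cortex. Median scaling, which moved the median of all probes by 0.23 in the thyroid at 9:00 and by -0.24 for the thyroid against other tissues, gave 2 members at 9:00, where Col18a1 lost its call (adjusted p = 0.0416), and 1 for 15:00 against 9:00, with 2 higher in the thyroid, 5 lower in the lungs and 1 lower in the medulla. With the compared groups alone in the fit, 2 were called in the thyroid at 9:00, 2 for 15:00 against 9:00, and 0 in the liver for 15:00 against 9:00 and 0 against 12:00. Repeat arrays left out gave 2 members with a time-dependent response in the thyroid, and repeat arrays counted gave 2 there, 5 for saline 12:00 against 9:00 in the thyroid, 1 in the medulla at 9:00 and 1 for saline 15:00 against 9:00 in the medulla. With no fold limit 7 were lower in the lungs, 11 in the cortex and 7 in the medulla, with 4 higher and 4 lower for medulla against cortex. In 131I mice 5 were lower in the lungs, with 1 higher and 1 lower for medulla against cortex. Without 9:00, 5 were lower in the lungs, 1 in the medulla and 1 for medulla against cortex, and without 12:00 that comparison had 1 higher and 1 lower. Leaving out the lungs and cortex libraries with markers of other tissues left 5 lower in the lungs, and leaving out the thyroid samples 4 lower in the medulla, both chosen after seeing the data. The replicate block gave 2 members for thyroid 15:00 against 9:00, where Col17a1 and the dimmer Col7a1 probe lost their calls, and took the call of Col16a1 in the thyroid at 9:00 (adjusted p = 0.0156). It changed no other call of a named probe and moved no other count by over 1.5 times. With each replicate left out in turn, counts ranged from 0 to 4 for 131I in the thyroid at 9:00, 0 to 2 for its time dependence, 0 to 3 for saline 15:00 against 9:00 in the thyroid, 0 to 1 for the liver contrasts of 15:00 against 9:00 and against 12:00, 0 to 1 for the medulla at 12:00 and 0 to 1 for saline 15:00 against 9:00 in the medulla. The causes were not tested. The counts under these settings stand without the shares of all probes called. They therefore do not show whether the collagens moved more than the array as a whole. Probes near background, such as those of Col1a1 and Col1a2, limit what their levels show, and a slide block was not run.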

Other observations

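Genes that build, bind and remodel collagen also differed between the tissues of saline mice. In the lungs, 13 of 27 probes of collagen biosynthesis were higher and 1 lower than in the other 5 tissues, as were 8 and 0 of 13 for breakdown, 6 and 0 of 9 receptors, and 11 and 1 of 15 fibril partners (18.5% and 19.5% of all probes). The largest lung differences in log2 level were those of Ogn, a small proteoglycan (5.15), Pcolce2 (4.78), the protease Ctsk (3.16), the laminin chain Lamb3 (2.82), the inhibitor Timp2 (2.69) and Lox, the enzyme that cross-links collagen (2.63). In the liver 7 of 27 probes of biosynthesis were higher and 15 lower, 1 and 8 of 13 for breakdown and 3 and 9 of 15 fibril partners, while 6 of 12 basement membrane partners were lower and 0 higher (15.8% of all probes higher and 23.4% lower). The liver was higher in the procollagen protease Bmp1 (2.54) and lower in Ogn (-4.10), Timp3 (-3.98), Ddr1 (-3.18), Lamb2 (-2.13) and Sparc (-2.08).

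The spleen had 0 basement membrane partners higher and 7 of 12 lower (24.4% and 23.8% of all probes), with Lamb1 at -2.36, and was higher in the collagen receptor Lair1 (2.18), the gelatinase Mmp9 (2.11) and the glycosyltransferase Colgalt1 (1.61). In the thyroid samples 11 of 15 fibril partners were higher and 1 lower (18.3% and 20.4% of all probes), with Lum at 3.13 and Bgn at -2.13. Both kidney parts were higher in P3h2, a prolyl hydroxylase that acts on type IV collagen (3.38 in the medulla and 3.23 in the cortex), in the collagen receptor Ddr1 (1.82 and 2.42) and in Timp3 (1.91 and 2.37). Against the cortex, the medulla was higher in 3 of 12 basement membrane partners and lower in 0 (4.37% and 3.58% of all probes), with Lamb3 at 2.41, Hspg2 at 0.83 and Agrn at 0.76.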
